A study of Mus musculus with 6 samples.

Results

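Integrins are receptors made of an alpha and a beta subunit that bind extracellular matrix or other cells, and laminins are trimers of an alpha, a beta and a gamma chain that form the basement membrane on which endothelium and epithelium rest. The genes for these subunits were followed in RNA from mouse lung endothelial isolates in which Fundc1, a mitophagy receptor of the outer mitochondrial membrane, was deleted in the endothelium or left floxed. Members were taken by symbol: Itga or Itgb followed by a number or letter (27 genes, without Itgb1bp1, Itgb1bp2, Itgb3bp and Itgbl1, which encode no integrin subunit), and Lama, Lamb or Lamc followed by a number (11 genes). These 38 genes, of 56941 in the count table, were all above the filter on low counts. In lung, alpha3, alpha6 and beta4 subunits are known as laminin receptors of epithelium and vessels, beta2 integrins as receptors of leukocytes, and the alpha4 and alpha5 laminins as the chains of endothelial basement membranes.

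The EC-KO group (3 libraries) carries the genotype label FUNDC1-KO and the FL group (3 libraries) the label FUNDC1-FLOX. The cells of all 6 libraries came from mouse lungs by bead isolation, dead cells were removed, and growth was in endothelial medium with serum. All 6 sample titles call these cells PAECs, without spelling the name out. The Cre driver, the bead antibody, the age and sex of the mice and any pooling are not given in the labels. Separate mice for the replicates are not stated either, so p-values cover only how far these libraries differ, and that may be technical.

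Depth was 29.7 M to 33.5 M gene counts in EC-KO and 26.7 M to 34.3 M in FL libraries. Fundc1 was at 14.1, 18.2 and 12.8 CPM (counts-per-million of the library) in EC-KO 1, 2 and 3, against 25.1, 32.0 and 30.7 CPM in FL 1, 2 and 3, so it was lower in the knockout but still present. On the second principal component of all tested genes EC-KO 2 (-50.3) stood apart from the other 5 libraries (-12.2 to 29.9). Defining endothelial genes were high in every library, yet 12 of 20 pan-endothelial markers were called lower in EC-KO and summed to 4240 to 8450 CPM there, against 10900 to 15200 CPM in FL. Smooth muscle and pericyte markers summed to 322 to 477 CPM in EC-KO, against 641 to 893 CPM in FL (8 of 14 called lower and 1 higher), 5 of 7 lymphatic markers were called lower, and 1 of 6 mesothelial markers was called higher. Leukocyte, platelet, epithelial and fibroblast markers are given beside the members they move with, and in such bulk samples fewer cells of a type and less RNA per cell cannot be told apart.

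Members of both families were called in the knockout isolates, in either direction. Of the 38 members 7 were called higher and 8 lower at an adjusted p under 0.05 in edgeR's quasi-likelihood test, 39.5% in all, where 27.1% of the 18562 tested genes were called (13.5% higher and 13.5% lower). The libraries of the groups did not overlap for 18 members, with EC-KO above FL in 8 (22.6% of all tested genes) and below in 10 (22.8%): the 15 called ones, Itga11, Itgb1 and Itgb7. These non-overlap counts are near the background, and whether the members' shares differ from it was not tested. Among integrin subunits 3 rose and 7 fell, and among laminin chains 4 rose and 1 fell. The median log2 fold change of EC-KO over FL was -0.37 for integrin subunits and 0.51 for laminin chains, beside 0.03 for all tested genes. Itgb6 (2.85) had the largest rise of the integrin subunits, and Lama1 (-4.19) and Itgax (-1.97) the largest falls of their families. Without EC-KO 2 the integrin falls numbered 13, and without FL 2 or FL 3 the laminin rises numbered 2.

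**Figure D1:**
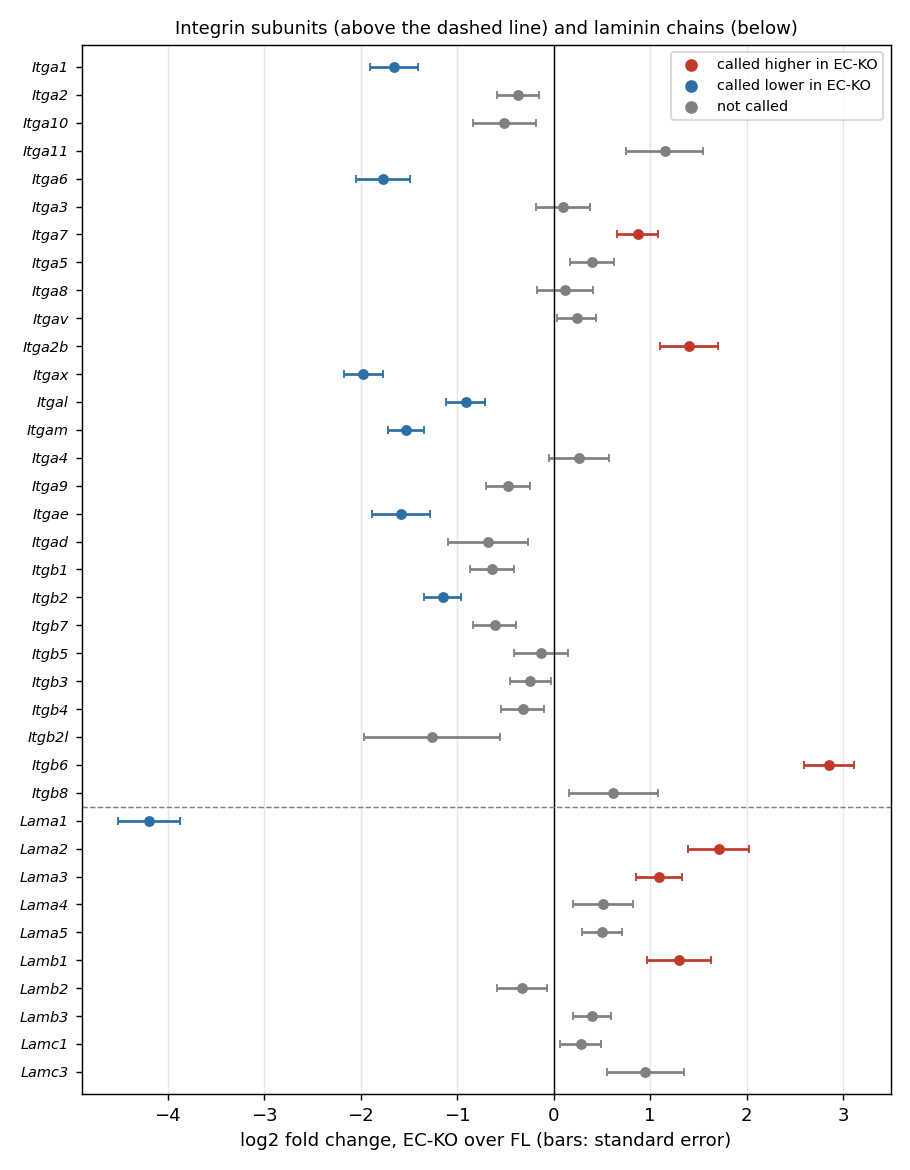
Log2 fold change of EC-KO over FL (x axis, bars are standard errors) for the integrin subunits and the laminin chains described here (y axis), with 3 libraries a group; colours mark genes called higher, called lower or not called. Lama1 lies farthest to the left at -4.19 and Itgb6 farthest to the right at 2.85.

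Promoters of 4 called integrin genes are shown because they stand for the leukocyte, epithelial and platelet subunits that moved in different directions. They are those of the leukocyte subunits Itgam and Itgax, which fell, the epithelial beta subunit gene Itgb6 and the platelet subunit gene Itga2b, which rose. Each line holds the 250 bases before a RefSeq start site in GRCm38.p6, on the strand of the gene. Capitals mark GAGGAA, a core bound by ETS factors such as PU.1, or TGANTCA, the AP-1 element, on either strand.
Itgam, chr7:128062390-128062639, plus strand: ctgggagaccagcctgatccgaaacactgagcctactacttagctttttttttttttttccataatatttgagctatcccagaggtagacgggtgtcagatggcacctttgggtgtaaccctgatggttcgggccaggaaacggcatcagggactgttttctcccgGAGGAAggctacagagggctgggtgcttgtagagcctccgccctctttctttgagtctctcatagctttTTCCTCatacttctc
Itgax, chr7:128129300-128129549, plus strand: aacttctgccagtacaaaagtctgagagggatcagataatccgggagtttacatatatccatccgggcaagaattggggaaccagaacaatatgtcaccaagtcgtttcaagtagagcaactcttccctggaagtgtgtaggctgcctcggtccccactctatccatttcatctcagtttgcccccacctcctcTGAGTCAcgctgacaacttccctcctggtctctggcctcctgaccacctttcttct
Itga2b, chr11:102469884-102470133, minus strand: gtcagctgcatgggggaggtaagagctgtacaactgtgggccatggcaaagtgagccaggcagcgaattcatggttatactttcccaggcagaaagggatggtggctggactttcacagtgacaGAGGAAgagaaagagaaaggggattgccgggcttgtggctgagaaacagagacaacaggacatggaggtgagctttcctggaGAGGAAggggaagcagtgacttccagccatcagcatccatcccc
Itgb6, chr2:60673694-60673943, minus strand: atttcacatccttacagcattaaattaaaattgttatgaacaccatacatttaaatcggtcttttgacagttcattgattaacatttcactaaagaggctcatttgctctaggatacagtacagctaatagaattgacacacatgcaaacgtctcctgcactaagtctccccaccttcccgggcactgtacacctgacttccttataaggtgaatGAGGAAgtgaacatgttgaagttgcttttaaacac
The Itgb6 promoter is that of one of its listed start sites, and the promoter of the other holds neither motif. The RefSeq table held 27 promoters of 24 members. GAGGAA occurred on either strand in 14 of these 27 promoters (51.9%), beside 23.3% of all 32851 promoters of the same length. Whether these shares differ was not tested. The motif was found in called members (Itgam, Itga2b, Itgb6, Lama2 and Lamb1). It was also found in members not called (Itga3, Itga5, Itga11, Itgav, Itgb1, Itgb2l, Lama5, Lamb2 and Lamb3). TGANTCA occurred in 1 of the 27 (3.70%, that of Itgax), beside 6.75% of all. GCGTG, the core bound by the aryl hydrocarbon receptor, occurred in 6 (22.2%), beside 28.2% of all, and in Itgax it overlaps the AP-1 element. A match here describes letters and is not evidence of binding.

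Among collagen-binding alpha subunits the main change was a fall of Itga1, a receptor for collagen IV and other collagens that is known from microvessels and mesenchyme. It was at 123, 228 and 158 CPM in EC-KO 1, 2 and 3, against 437, 564 and 599 CPM in FL 1, 2 and 3. All EC-KO libraries lay below all FL libraries, and the log2 fold change was -1.65 ± 0.25 (SE, edgeR adjusted p = 0.00240). Per unit of length it was the most abundant subunit of its role, with a mean of 31.5 TPM (transcripts-per-million, which allow for gene length) in EC-KO and 100 TPM in FL. Its neighbour on chromosome 13, Itga2, the subunit of the other widespread collagen receptor, is separated from it by 21.0 kb and had a log2 fold change of -0.37 (edgeR adjusted p = 0.247). Itga2 was at 38.6 and 41.2 CPM in EC-KO 1 and 3 and at 67.3 CPM in EC-KO 2, against 58.8 to 67.2 CPM in FL, and without EC-KO 2 it was called lower (-0.70, edgeR adjusted p = 0.00458). Itga11, a fibroblast receptor for fibrillar collagen, was at 1.21 to 1.62 CPM in EC-KO, against 0.458 to 0.883 CPM in FL. Those groups did not overlap, but the change of 1.15 did not pass the test (edgeR adjusted p = 0.0603). It passed with upper-quartile factors (adjusted p = 0.0493), library size alone (0.0470), a filter of 1 CPM in 3 libraries (0.0411) and DESeq2 (0.0424). Itga10 was at 1.99 to 4.30 CPM in EC-KO and 3.83 to 4.17 CPM in FL, with a log2 fold change of -0.51 (edgeR adjusted p = 0.274) and a call without EC-KO 2 (-0.96, adjusted p = 0.0213), and shares 33.5% of its exon bases with another gene model.

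The laminin-binding alpha subunits parted. Itga6, which pairs with beta1 or beta4 and marks endothelium and epithelium, was at 91.5, 160 and 118 CPM in EC-KO 1, 2 and 3, against 303, 559 and 397 CPM in FL 1, 2 and 3. The groups were well apart, with a log2 fold change of -1.77 ± 0.28 (SE, edgeR adjusted p = 0.00291). Itga3, the laminin receptor subunit of alveolar and airway epithelium, was at 128, 254 and 134 CPM in EC-KO, against 122, 175 and 183 CPM in FL, so the groups overlapped (0.10 ± 0.28 SE, edgeR adjusted p = 0.822). Within a library the ratio of Itga3 to Itga6 in TPM was therefore 1.81 to 2.54 in EC-KO, against 0.501 to 0.739 in FL, so Itga3 exceeded Itga6 in each EC-KO library and Itga6 exceeded Itga3 in each FL library. Itga7, the laminin receptor subunit of muscle, rose from a low level: it was at 14.9, 18.5 and 20.2 CPM in EC-KO, against 10.3, 7.73 and 11.4 CPM in FL (0.87 ± 0.21 SE, edgeR adjusted p = 0.0175). The Itga7 groups did not overlap, but leaving out EC-KO 3 (adjusted p = 0.0632) or FL 2 (adjusted p = 0.0768) ended the call. It rose beside smooth muscle and pericyte markers that were lower in sum.

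Of the subunits that bind RGD sequences, Itga2b was called, and Itga5, Itga8 and Itgav were not. Itga2b, which with beta3 forms the fibrinogen receptor of platelets and megakaryocytes, was at 33.6, 45.8 and 35.3 CPM in EC-KO 1, 2 and 3, against 21.7, 12 and 9.68 CPM in FL 1, 2 and 3. Every EC-KO library was above every FL library (1.40 ± 0.30 SE, edgeR adjusted p = 0.00962). Its partner Itgb3 was at 39.9 to 67.8 CPM in EC-KO, against 60.8 to 69.8 CPM in FL, and was not called (-0.24, edgeR adjusted p = 0.423). Markers of platelets and red cells summed to 97.9 to 233 CPM in EC-KO, against 25.5 to 94.9 CPM in FL, with 5 of 10 tested markers called higher and Gp1bb at 0 counts in all 6 libraries. Of the platelet genes in that list, Ppbp (1.40, edgeR adjusted p = 0.0462) and Gp9 (1.82, edgeR adjusted p = 0.0196) were called higher. Pf4 (0.16, edgeR adjusted p = 0.714), Gp1ba (0.29, edgeR adjusted p = 0.710) and Gp6 (0.87, edgeR adjusted p = 0.324) did not pass the test, and the part of platelets in the Itga2b values was not tested. Itga5, the fibronectin receptor subunit, was the most abundant of its role per unit of length, with means of 257 TPM in EC-KO and 197 TPM in FL, and did not pass the test (0.40, edgeR adjusted p = 0.236). It was at 293, 495 and 314 CPM in EC-KO, against 326, 241 and 269 CPM in FL, and EC-KO 2 held the highest value. Itgav, which pairs with several beta subunits, was at 102 to 135 CPM in EC-KO and 81.6 to 124 CPM in FL. Itga8, the nephronectin receptor subunit of mesenchyme, was at 76.6 to 176 CPM in EC-KO and 89.3 to 127 CPM in FL, and its direction turned without EC-KO 2 (log2 fold change of -0.29, edgeR adjusted p = 0.270).

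Of the 7 alpha subunits of leukocytes and other cells, 4 fell in the knockout isolates (Itgax, Itgam, Itgal and Itgae), beside 13.5% of all tested genes, and Itga4, Itga9 and Itgad did not pass the test. In edgeR 0 of them rose (0 at an unadjusted p under 0.05, and 0 in DESeq2 or limma-voom). Itgax, found on dendritic cells and alveolar macrophages, was at 68.7, 80.4 and 87.6 CPM in EC-KO 1, 2 and 3, against 313, 364 and 247 CPM in FL 1, 2 and 3. Its highest EC-KO value was far under its lowest FL value (-1.97 ± 0.20 SE, edgeR adjusted p = 0.000548). Itgam, the subunit of the complement receptor of neutrophils and macrophages, was at 20.9, 16.6 and 16.6 CPM in EC-KO, against 42.1, 57.0 and 57.3 CPM in FL (-1.53 ± 0.19 SE, edgeR adjusted p = 0.00109). The Itgam groups were likewise apart, but 68.7% of its exon bases are shared with the same-strand gene model Gm49368 (0 to 4 counts per library), and reads ambiguous between genes were set aside, so an unknown part of its reads may be missing from its counts. Itgal, the subunit of the ICAM receptor of lymphocytes and other leukocytes, was at 191, 143 and 166 CPM in EC-KO, against 307, 376 and 258 CPM in FL (-0.91 ± 0.20 SE, edgeR adjusted p = 0.0103). Itgae, which with beta7 binds E-cadherin, was at 6.73, 3.61 and 4.67 CPM in EC-KO, against 13.6, 20.3 and 11.1 CPM in FL (-1.58 ± 0.30 SE, edgeR adjusted p = 0.00674). Neither of these overlapped between groups.

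Itgad, which lies 3.72 kb from Itgax on chromosome 7, was low in all libraries, at 0.895 to 2.16 CPM in EC-KO and 1.77 to 2.60 CPM in FL (-0.68, edgeR adjusted p = 0.248). Itga4, the VCAM1 receptor subunit of lymphocytes and monocytes, did not follow the others and was at 158, 120 and 230 CPM in EC-KO, against 173, 165 and 85 CPM in FL (0.26, edgeR adjusted p = 0.559). Its direction rested on single libraries, with -0.04 without EC-KO 3 and -0.03 without FL 3. Itga9, a tenascin receptor subunit of lymphatic valves and other cells, was at 37.2, 62.2 and 41.0 CPM in EC-KO, against 55.3, 60.3 and 79.0 CPM in FL. It was not called with all libraries (-0.47, edgeR adjusted p = 0.157) and was called lower without EC-KO 2 (-0.76, adjusted p = 0.0103).

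Beside the leukocyte subunits, macrophage and monocyte markers summed to 3470 to 3910 CPM in EC-KO, against 6710 to 8940 CPM in FL, and 17 of 20 were called lower. None of these 20 markers was at 0 in all libraries, and Adgre1, the F4/80 antigen, was at 18.2 CPM in EC-KO and 89.3 CPM in FL. Markers of neutrophils and mast cells summed to 520 to 589 CPM in EC-KO, against 1560 to 3030 CPM in FL, with 6 of 12 called lower. The called genes were S100a8, S100a9, Cxcr2, Csf3r, Retnlg and Kit. Kit alone gave 123 to 210 CPM of the EC-KO sums and 579 to 775 CPM of the FL sums. Which cells its transcripts came from was not tested. The mast cell genes Cpa3 (log2 fold change 0.01), Mcpt4 (-0.19), Tpsb2 (-0.84) and Fcer1a (0.81) did not pass edgeR's test. Nor did the neutrophil genes Ly6g (-0.87, edgeR adjusted p = 0.212) and Mpo (1.34, edgeR adjusted p = 0.105). The direction of Mpo was opposite to that of the called genes, and the groups overlapped for both Ly6g and Mpo. Lymphocyte markers overlapped between groups (432 to 902 CPM in EC-KO and 513 to 765 CPM in FL), with 3 of 14 called higher and 2 lower, and the pan-leukocyte gene Ptprc was at 681 CPM in EC-KO and 877 CPM in FL (-0.37, edgeR adjusted p = 0.325). The part of these cells in the leukocyte integrin values was not tested.

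**Figure D2:**
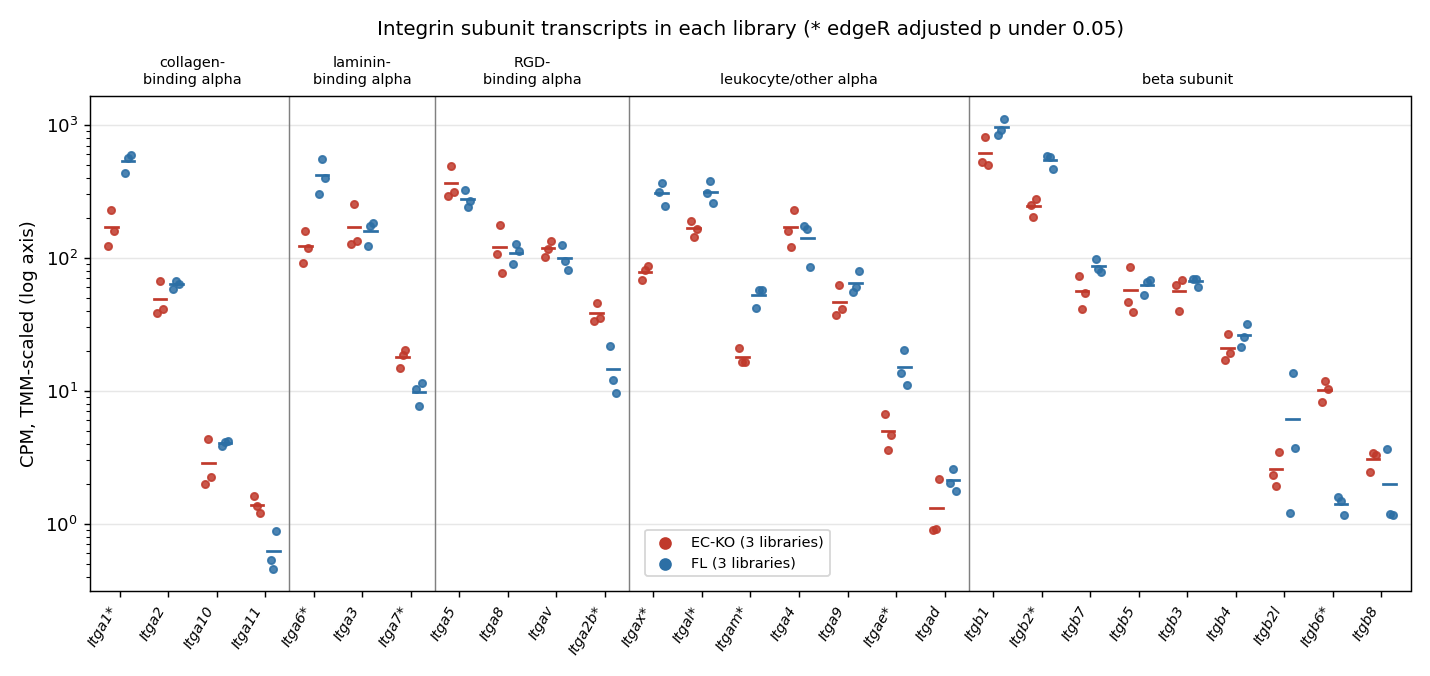
CPM of each integrin subunit (y axis, log scale) in every library, grouped by role along the x axis; points are the 3 EC-KO (left of each pair) and 3 FL libraries, lines are means and asterisks mark calls. Itgax lies between 68.7 and 87.6 CPM in EC-KO and between 247 and 364 CPM in FL, and Itgb6 between 8.23 and 11.9 CPM in EC-KO and between 1.16 and 1.59 CPM in FL.

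Of the 9 beta subunits 1 was called higher, 1 lower and 7 were not called (22.2%, beside 27.1% of all tested genes). Their summed level, carried by Itgb1 and Itgb2, was 934 to 1010 TPM in EC-KO, against 1610 to 1710 TPM in FL, and alpha subunits summed to 707 to 916 TPM in EC-KO, against 1110 to 1350 TPM in FL. Itgb1, the partner of most matrix-binding alpha subunits, was the most abundant member (518 TPM in EC-KO and 820 TPM in FL). It was at 528, 814 and 498 CPM in EC-KO 1, 2 and 3, against 845, 920 and 1110 CPM in FL 1, 2 and 3, and EC-KO 2 lay close under the FL range. The change of -0.64 ± 0.23 (SE) did not pass the test with all libraries (edgeR adjusted p = 0.0665). It passed without EC-KO 2 (-0.93, adjusted p = 0.00342), without the filter (adjusted p = 0.0257), in DESeq2 (adjusted p = 0.0271) and in limma-voom (adjusted p = 0.0487), and over all alternatives the adjusted p was between 0.00342 and 0.200. Itgb2, the shared partner of the leukocyte subunits, was at 252, 202 and 279 CPM in EC-KO, against 584, 576 and 466 CPM in FL (-1.15 ± 0.19 SE, edgeR adjusted p = 0.00332). All EC-KO values of Itgb2 lay under all FL values.

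Itgb6, which pairs with alphaV on epithelium and releases active TGF-beta from its latent complex, was the beta subunit that rose. It was at 8.23, 11.9 and 10.3 CPM in EC-KO 1, 2 and 3, against 1.59, 1.47 and 1.16 CPM in FL 1, 2 and 3, with 285 to 380 counts per EC-KO library and 38 to 48 per FL library. The groups were far apart (2.85 ± 0.26 SE, edgeR adjusted p = 0.000436), and the value stayed between 2.69 and 2.98 in all alternatives run. Itgb8, the other alphaV partner known to activate TGF-beta, was at 2.43 to 3.42 CPM in EC-KO and 1.16 to 3.64 CPM in FL, where FL 1 held the highest value (0.62, edgeR adjusted p = 0.338). Without FL 1 it was called higher (1.34, adjusted p = 0.0277). Per unit of length there were 0.116 to 0.154 Itgb6 transcripts for each Itgav transcript in EC-KO, against 0.0194 to 0.0233 in FL.

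The other beta subunits were not called. Itgb7, the partner of alpha4 and alphaE on lymphocytes, was at 73.4, 41.5 and 54.8 CPM in EC-KO, against 98.3, 82.0 and 78.1 CPM in FL, without overlap (-0.61, edgeR adjusted p = 0.0677). It passed the test without EC-KO 1 (-0.84, adjusted p = 0.0357), without the filter (adjusted p = 0.0293) and in DESeq2 (adjusted p = 0.0431). Itgb4, the hemidesmosome subunit, was at 17.1 to 26.6 CPM in EC-KO and 21.4 to 31.8 CPM in FL (-0.32, edgeR adjusted p = 0.307), and without EC-KO 2 it was called lower (-0.56, adjusted p = 0.0490). Itgb5, a vitronectin receptor subunit, was at 39.1 to 85 CPM in EC-KO and 52.2 to 68.6 CPM in FL (-0.13, edgeR adjusted p = 0.758). Its highest value was again in EC-KO 2, without which it was called lower (-0.57, adjusted p = 0.0263), and without EC-KO 3 it was at 0.07. Itgb2l, a relative of beta2, spread from 1.21 to 13.5 CPM within FL alone and from 1.91 to 3.46 CPM in EC-KO. Its direction rested on FL 2, without which the log2 fold change was 0.05, and without FL 1 it was called lower (-1.78, edgeR adjusted p = 0.0423).

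Ratios between partner subunits, in TPM within a library, compare RNA levels in a bulk sample. They do not show which partner was in excess as protein or within a cell type. Itgax per Itgb2 was 0.173 to 0.253 in EC-KO, against 0.337 to 0.402 in FL, so Itgax fell by more than its partner in these libraries, while Itgal per Itgb2 (0.277 to 0.352 in EC-KO and 0.244 to 0.303 in FL) overlapped between groups. Itga1 per Itgb1 was 0.0512 to 0.0696 in EC-KO, against 0.114 to 0.135 in FL. Itga6 per Itgb1 was 0.0773 to 0.106 in EC-KO, against 0.160 to 0.271 in FL. For these partners of Itgb1, RNA of the alpha subunit relative to that of Itgb1 was thus lower in each EC-KO library than in any FL library. Itga5 per Itgb1 went the other way, at 0.458 to 0.521 in EC-KO, against 0.201 to 0.320 in FL. Itga5 held 31.1 ± 3.03% of all alpha subunit transcripts in EC-KO and 16.8 ± 3.74% in FL (SD, n = 3 each). Itgax held 7.09 ± 1.31% in EC-KO and 18.7 ± 2.25% in FL, so that Itga5 exceeded it in each EC-KO library and the order of these subunits differed between FL libraries.

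Laminin alpha chains were altered most in Lama1, a chain best known from embryonic and tubular basement membranes. Lama1 was at 2.89, 6.30 and 3.80 CPM in EC-KO 1, 2 and 3, against 62.0, 99.3 and 76.3 CPM in FL 1, 2 and 3, from 100 to 201 counts per EC-KO library and 1635 to 3251 per FL library. All 3 EC-KO values lay far under the lowest FL value, and the log2 fold change was -4.19 ± 0.32 (SE, edgeR adjusted p = 0.000352), between -4.60 and -3.97 in all alternatives run. Lama1 lies on chromosome 17 at 68004254 to 68129642, plus strand (positions as deposited with the counts, of an unresolved genome build), and shares no exon base with another gene of the table. It made up 1.25 ± 0.200% of laminin alpha transcripts in EC-KO and 26.5 ± 2.61% in FL (SD, n = 3 each, from TPM).

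Lama2 and Lama3 rose. Lama2, the chain of muscle, nerve and mesenchyme, was at 62.4, 89.0 and 40.5 CPM in EC-KO 1, 2 and 3, against 13.9, 26.8 and 17.8 CPM in FL 1, 2 and 3 (1.71 ± 0.32 SE, edgeR adjusted p = 0.00630). EC-KO 2 was highest and EC-KO 3 lowest of the knockout libraries, and all 3 lay above FL. Lama3, the alpha chain of epithelial anchoring laminin, was at 11.8, 20.9 and 12.9 CPM in EC-KO, against 7.01, 7.15 and 7.22 CPM in FL (1.09 ± 0.24 SE, edgeR adjusted p = 0.0125). It was not called without FL 2 (adjusted p = 0.0502) or FL 3 (adjusted p = 0.0557). Lama5, the widespread chain of mature vessels and epithelia, was the most abundant alpha chain, at 81.8 TPM in EC-KO and 57.8 TPM in FL. It was at 193, 311 and 295 CPM in EC-KO, against 159, 205 and 200 CPM in FL, with EC-KO 1 inside the FL range, and did not pass the test (0.50, edgeR adjusted p = 0.112). Lama4, the chain typical of endothelium, was at 61.6, 108 and 44.6 CPM in EC-KO, against 39.3, 51.7 and 59.7 CPM in FL, where the groups overlapped (0.51, edgeR adjusted p = 0.247). The values of both chains in EC-KO were thus not below FL on average. The median log2 fold change was -1.04 for the pan-endothelial, 2.43 for the epithelial and 1.44 for the fibroblast markers. Which cells the transcripts of the 2 chains came from was not tested.

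Of the beta chains Lamb1 rose. Lamb1, found in most laminins of development and mesenchyme, was at 101, 171 and 61.6 CPM in EC-KO 1, 2 and 3, against 37.9, 50.1 and 47.4 CPM in FL 1, 2 and 3 (1.30 ± 0.33 SE, edgeR adjusted p = 0.0193). All EC-KO values lay above FL, but the adjusted p passed the threshold no longer without EC-KO 1 (0.0502), FL 1 (0.0669), FL 2 (0.0551) or FL 3 (0.0692). Lamb2, the chain of mature vessels, was the most abundant beta chain per unit of length, with 83.7 TPM in EC-KO and 107 TPM in FL, and was at 117, 191 and 134 CPM in EC-KO, against 138, 173 and 245 CPM in FL (-0.33, edgeR adjusted p = 0.359). Lamb3, the beta chain of epithelial anchoring laminin, was at 46.8, 52.0 and 52.4 CPM in EC-KO, against 28.0, 40.0 and 46.9 CPM in FL. The lowest EC-KO value lay just under the highest FL value, and the change did not pass the test (0.40, edgeR adjusted p = 0.174). Lamb1 held 25.2 ± 7.06% of beta chain transcripts in EC-KO and 11.5 ± 1.99% in FL (SD, n = 3 each).

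**Figure D3:**
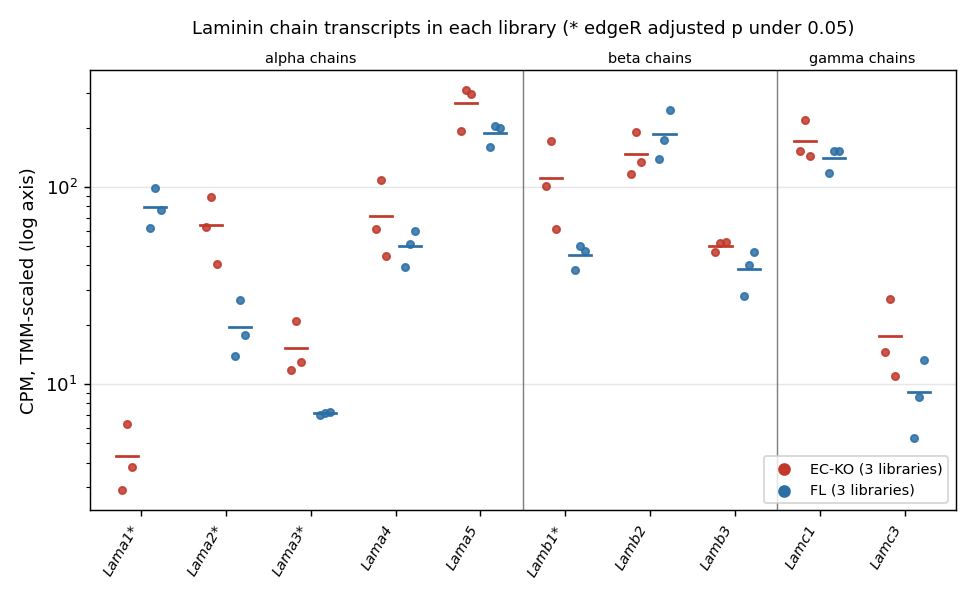
CPM of the laminin chains described here (y axis, log scale) in every library; points are the 3 EC-KO (left of each pair) and 3 FL libraries, lines are means and asterisks mark calls. Lama2 lies between 40.5 and 89.0 CPM in EC-KO and between 13.9 and 26.8 CPM in FL, and Lama1 between 2.89 and 6.30 CPM in EC-KO and between 62.0 and 99.3 CPM in FL.

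Lamc1, the common gamma chain, was at 152, 220 and 143 CPM in EC-KO 1, 2 and 3, against 118, 152 and 152 CPM in FL 1, 2 and 3, and the groups overlapped (0.28, edgeR adjusted p = 0.334). Its mean was 71.8 TPM in EC-KO and 59.6 TPM in FL. Lamc3, a rarer gamma chain, was at 14.6, 27.1 and 11 CPM in EC-KO, against 5.34, 8.62 and 13.3 CPM in FL (0.95, edgeR adjusted p = 0.106). EC-KO 3 lay inside the FL range of Lamc3. Summed alpha chains (95.5 to 140 TPM in EC-KO and 87.1 to 124 TPM in FL) and summed beta chains (128 to 178 TPM in EC-KO and 107 to 181 TPM in FL) overlapped between groups.

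Per unit of length Lama3 was at 0.152 to 0.247 per transcript of Lamb3, its partner in epithelial anchoring laminin, in EC-KO and at 0.0946 to 0.154 in FL, and these ranges overlapped. Lama1 per Lama5 transcript was at 0.0152 to 0.0239 in EC-KO, against 0.449 to 0.569 in FL, and Lamb1 per Lamb2 transcript at 0.282 to 0.548 in EC-KO, against 0.119 to 0.177 in FL. Both of these ratios were apart between groups, in opposite directions.

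**Figure D4:**
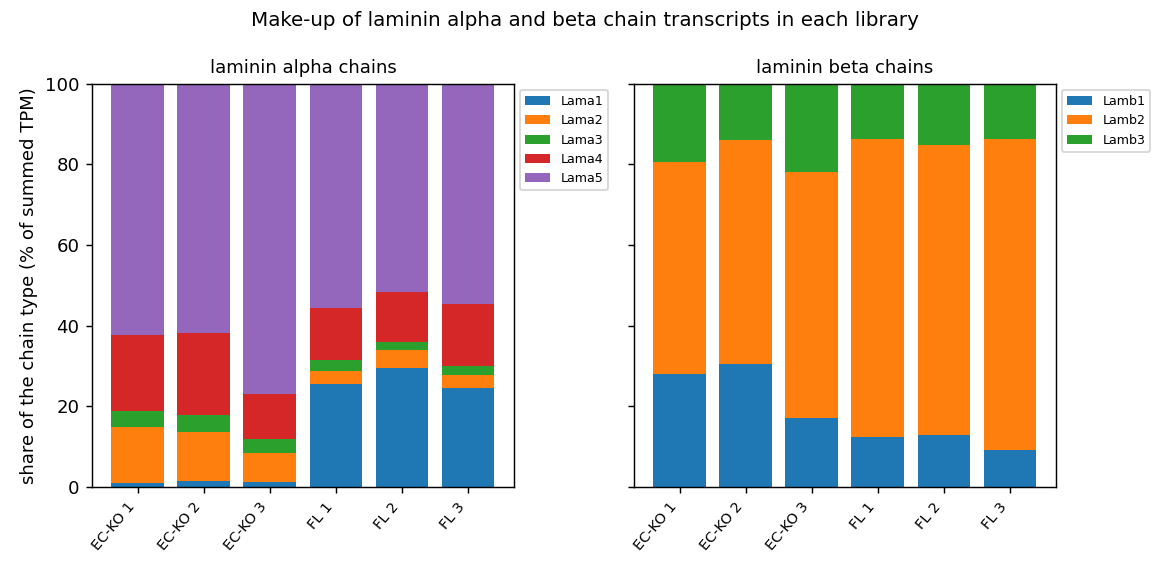
Share of each chain in the summed TPM of laminin alpha chains and of beta chains (y axis, percent) in each library (x axis). Lama1 makes up 1.09% to 1.47% of alpha chains in EC-KO and 24.5% to 29.4% in FL, and Lamb1 17.2% to 30.5% of beta chains in EC-KO and 9.16% to 12.8% in FL.

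Epithelial and fibroblast markers were higher in the same libraries as Itgb6, Lama3, Lama2 and Lamb1. Epithelial markers summed to 11900 to 17800 CPM in EC-KO, against 1950 to 4560 CPM in FL, with 18 of 19 called higher and none at 0 in all libraries. On the log2(CPM + 1) scale their mean relative to FL was 2.28, 2.89 and 2.18 in EC-KO 1, 2 and 3, where Itgb6 stood at 1.94, 2.43 and 2.24 and Lama3 at 0.65, 1.43 and 0.78. For both of these genes EC-KO 2, the library with the highest epithelial mean, held the highest value. The lowest was EC-KO 1 for both genes but EC-KO 3 for the list, so the full order differed. Other members known from epithelium were not called and stood far under the list mean. In EC-KO 1, 2 and 3 Lamb3 was at 0.31, 0.46 and 0.47, Itga3 at -0.30, 0.68 and -0.24, and Itgb4 at -0.58, 0.04 and -0.41. Fibroblast markers summed to 997 to 2330 CPM in EC-KO, against 540 to 732 CPM in FL, with 11 of 16 called higher. Their relative means were 1.62, 2.24 and 0.95 in EC-KO 1, 2 and 3, beside 1.68, 2.18 and 1.07 for Lama2 and 1.15, 1.90 and 0.45 for Lamb1. The order of the 3 knockout libraries was the same for the list and for each gene. It was also that of the epithelial list, so this order is not particular to fibroblast markers. Itga8 (-0.03, 0.69 and -0.50) and Itga11 (0.70, 0.54 and 0.45), known from mesenchyme and fibroblasts, stood under the fibroblast mean in each EC-KO library and were not called. Pan-endothelial means were -1.53, -0.60 and -1.53, beside -0.85, -0.23 and -0.93 for Itgb1, -2.14, -1.34 and -1.77 for Itga6 and -4.34, -3.43 and -4.03 for Lama1. EC-KO 2 was again the highest knockout library, in the list and in each gene, and here this placed it nearest to FL. The part of epithelial, fibroblast or endothelial cell numbers in these member values was not tested.

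**Figure D5:**
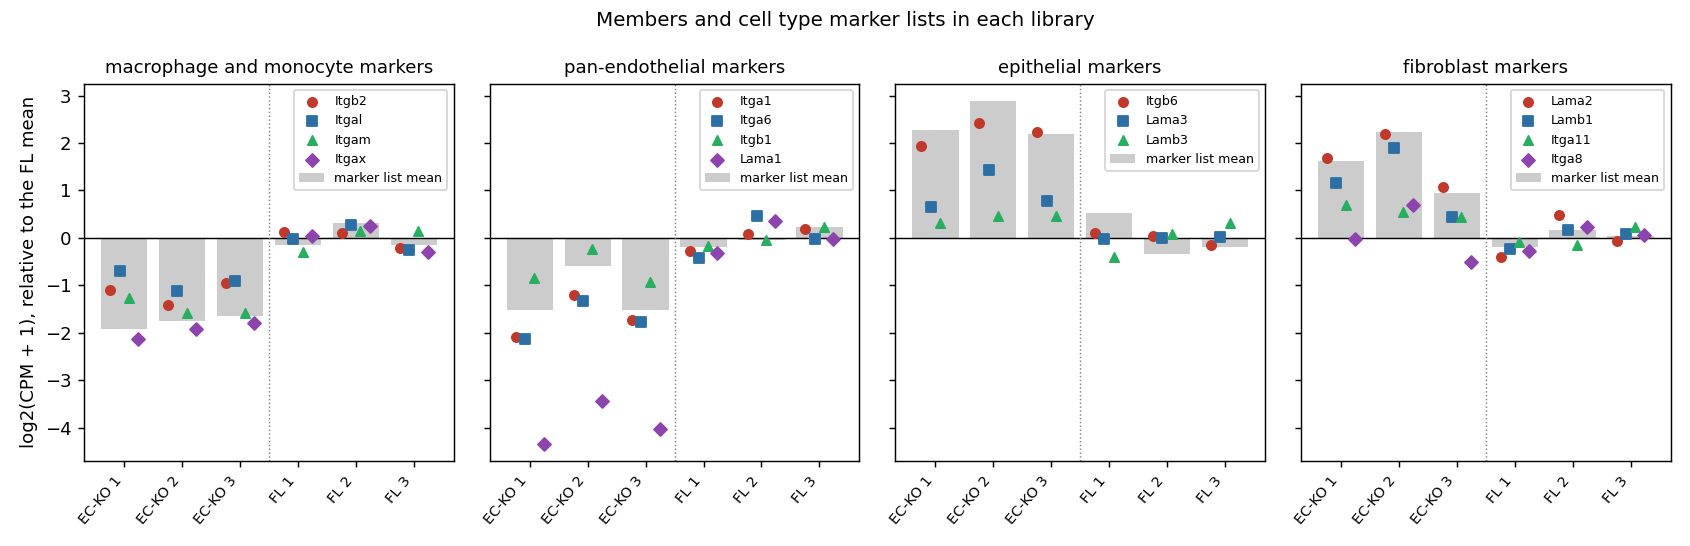
Levels of 15 members (points) and mean of 4 marker lists (grey bars) in each library, on the log2(CPM + 1) scale relative to the FL mean (y axis). Itgb6 stands below the epithelial mean in EC-KO 1 and 2 and above it in EC-KO 3 (1.94, 2.43 and 2.24 beside 2.28, 2.89 and 2.18), and Lama1 stands below the pan-endothelial mean (-4.34, -3.43 and -4.03 beside -1.53, -0.60 and -1.53).

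Genes of integrin adaptors, partners and other adhesion machinery were called in about the background share, 28.3% of 46 beside 27.1% of all tested genes. In that list 3 rose and 10 fell. Itgbl1, a secreted protein with integrin-like repeats (2.54, edgeR adjusted p = 0.00117), the kinase Src (1.03, edgeR adjusted p = 0.00600) and the hemidesmosome linker Plec (0.85, edgeR adjusted p = 0.0245) rose. The falls with the smallest p were those of Apbb1ip, which couples Rap1 to talin in leukocytes (-1.15, edgeR adjusted p = 0.00160), the leukocyte parvin Parvg (-0.89, edgeR adjusted p = 0.00496) and the tetraspanin Cd9 (-0.98, edgeR adjusted p = 0.00610). Rap1b, a small GTPase that activates integrins, had the highest mean level of the list over all libraries per unit of length, at 808 TPM in EC-KO and 845 TPM in FL (-0.06, edgeR adjusted p = 0.821). The falls numbered 26 without EC-KO 2, 3 without EC-KO 1 or FL 2, and 4 without EC-KO 3 or FL 3.

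Other basement membrane proteins and integrin ligands moved in both directions, with 10 of 43 tested genes higher and 7 lower (39.5%, beside 27.1%). E-cadherin (Cdh1), the ligand of alphaE and also an epithelial marker here, rose by 2.43 (edgeR adjusted p = 0.000937). It had the smallest p of the rises, followed by the matrix glycoprotein Fbln1, also on the fibroblast list (2.52, edgeR adjusted p = 0.00180), and by Egfl6 (2.46, edgeR adjusted p = 0.00451). Ntn1, a laminin-related guidance protein (-1.92, edgeR adjusted p = 0.00196), Edil3, an RGD ligand of alphaV integrins (-1.68, edgeR adjusted p = 0.00306), and the vascular collagen Col15a1 (-1.30, edgeR adjusted p = 0.00515) fell. The most abundant ligand gene per unit of length, thrombospondin 1 (Thbs1), was at 2740 TPM in EC-KO and 2020 TPM in FL (0.48, edgeR adjusted p = 0.310). Core basement membrane genes Nid1 (0.10, adjusted p = 0.803), Hspg2 (-0.08, adjusted p = 0.800) and Col4a1 (-0.28, adjusted p = 0.425) did not pass edgeR's test. Other collagen IV chains were called higher: Col4a3 (0.87, edgeR adjusted p = 0.0425), Col4a4 (1.00, edgeR adjusted p = 0.0206) and Col4a5 (0.58, edgeR adjusted p = 0.0485). Col4a2 (-0.18) and Col4a6 (0.37) were not called. In the whole list the rises numbered 4 without FL 2 and 5 without FL 3. Leaving out EC-KO 2 gave 17 falls, EC-KO 1 gave 3, and FL 2 or FL 3 gave 4.

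Of 13 laminin receptors outside the integrin family and modulators of laminin or collagen networks 1 was called (7.69%, beside 27.1% of all tested genes). Whether that share differs from the background was not tested. The called gene was Pxdn, a peroxidase that crosslinks collagen IV and is no laminin receptor (-0.75, edgeR adjusted p = 0.0492), a call that ended when EC-KO 1, EC-KO 3, FL 2 or FL 3 was left out. In edgeR 0 of them rose (0 at an unadjusted p under 0.05, and 0 in DESeq2 or limma-voom). Dystroglycan (Dag1) had a log2 fold change of -0.44 (edgeR adjusted p = 0.181) and the Lutheran glycoprotein Bcam, a receptor for the alpha5 chain, one of -0.06 (edgeR adjusted p = 0.883). Rpsa, a ribosomal protein that is also a laminin-binding protein, was the most abundant of the list per unit of length, at 1650 TPM in EC-KO and 1300 TPM in FL (0.34, edgeR adjusted p = 0.262).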

How the data were processed

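RNA-seq counts of 3 EC-KO and 3 FL libraries were analysed. Raw counts per Ensembl gene were deposited by the authors in the layout of featureCounts, per the file headers, with alignments per class in a second table of counts. Named in the submitters' processing notes are mm10, featureCounts 2.0.3 and STAR 2.7.10b, with no role or order, and the strand setting is not given in the sources used here. Alignments to several places (9.10% to 11.5%) or ambiguous between genes (3.60% to 3.98%) were not counted. The table held 2 further per-sample columns that match no label and were not used. Of 56941 genes 51948 took a symbol from GENCODE M21 names, and 0 of 38 members had the start and end of that GRCm38 annotation, so table coordinates are of an unresolved build. Promoters are RefSeq sequences of GRCm38.p6.

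Counts were tested with edgeR 4.0.16 in R 4.3.3 (filterByExpr, 18562 of 33412 genes with any count kept; TMM; robust glmQLFit and glmQLFTest, two-sided, Benjamini-Hochberg over all tested genes, threshold 0.05; common biological coefficient of variation 25.5%), and the test was tested on simulated data. Standard errors are the absolute log2 fold change over the square root of F. CPM are TMM-scaled, and TPM use the table's gene lengths. Counts, medians and tests cover all 38 members, of which 1 is not reported here by itself. Members, lists, motifs and tests were chosen with earlier results of these data known. Called members and the most abundant member of each role are given per library. Of each further list the 3 called genes with the smallest p in each direction and the most abundant one by mean TPM are named, and any other gene was picked with its values known. Alternatives were other scalings and filters, DESeq2 1.42.0, limma-voom (limma 3.58.1), a replicate block and leaving out each library. Figures used Python 3.11.15 and matplotlib 3.10.9.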

Additional observations from a re-analysis of the deposited data

How the results depend on the processing

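Of the 15 called members, 12 kept their call and direction in all 14 alternatives, and Itga7, Lama3 and Lamb1 lost it without single libraries. Leaving out 1 library at a time gave 2547 to 6740 called genes in all (5029 with all libraries), 7 to 13 integrin falls (7), 2 to 4 laminin rises (4), 3 to 26 falls in the adhesion machinery list (10), 4 to 9 rises and 3 to 17 falls among other ligands (10 and 7) and 0 to 3 falls among other laminin receptors and modulators (1). The adhesion machinery list had 5 rises with upper-quartile factors, library size alone, no filter or DESeq2 (3 in the main test). The other laminin receptors and modulators had 0 falls with upper-quartile factors or a filter of 1 CPM in 3 libraries, and 2 with no filter, DESeq2 or limma-voom. Members whose direction turned without single libraries were not called with all of them: Itga8 (-0.29 to 0.35), Itgb2l (-1.78 to 0.05), Itgb5 (-0.57 to 0.07), Itga3 (-0.32 to 0.27) and Itga4 (-0.04 to 0.43). The cause was not tested. The labels state no pairing of same-numbered libraries, whose deviations from their group means correlated at 0.08, -0.01 and -0.26 for numbers 1, 2 and 3. With 3 libraries a group these deviations are bound to each other, so the correlations cannot exclude a pairing. With the replicate block 3848 genes were called, and the call of each of the 38 members was as without it. By counting, levels were least precise for Itga11, Itgad, Itgb2l, Itgb8 and Itgb6, whose lowest libraries held 14, 29, 32, 38 and 38 counts.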
